A study of Mus musculus with 10 samples.

Results

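Transcript levels of the unfolded protein response and of the integrated stress response were examined in hematopoietic stem and progenitor cells (HSPCs), the bone marrow cells that renew the blood, through 10 genes: Hspa5, Hsp90b1, Calr, Pdia4, Sdf2l1, Herpud1, Xbp1, Atf4, Ddit3 and Trib3. The genes were taken by symbol from deposited tables of 55573 gene rows, of which 11 carried one of these symbols. The second Ddit3 row, a short annotated gene that lies wholly inside Ddit3 exons, had 0 counts in all 10 libraries, and all 10 genes passed the filter on low counts. The donors were C57BL/6 mice whose labels state an age of 16 weeks, irradiated over the whole body with 500 cGy and sampled 6 weeks later. The EGF group, 5 libraries, received subcutaneous epidermal growth factor (EGF), which signals through the receptor EGFR. The Saline group, also 5 libraries, received saline by the same route. Both groups shared the strain, the age, the radiation dose and the time. The comparison therefore asks how the stress genes differ with EGF among irradiated mice, and mice without irradiation are not analysed here. Neither the EGF schedule nor the markers used to isolate the cells are stated in the sources used here.

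When unfolded proteins build up in the endoplasmic reticulum (ER), the chaperone BiP, encoded by Hspa5, is drawn away from the membrane sensors IRE1, PERK and ATF6. IRE1 splices Xbp1 mRNA into the form that encodes an active transcription factor, ATF6 is cut to release another, and PERK phosphorylates eIF2, which slows translation while favouring translation of ATF4. Together these factors raise chaperones, degradation factors and amino acid genes, and the same eIF2 step answers amino acid lack, heme lack and viral RNA in the integrated stress response. Blood stem cells make protein slowly and are known to be sensitive to its misfolding, whereas antibody-secreting plasma cells carry a large, XBP1-dependent secretory apparatus. Counts per gene do not tell spliced from unspliced Xbp1 mRNA, and the control of ATF4 lies largely in translation, so neither step is seen in these values.

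The promoters of 4 of the genes are shown because they hold letters of the elements through which ATF6 and XBP1 are known to act. Promoter windows came from RefSeq (GRCm38.p6), 250 bases before to 50 bases after the RefSeq start. They were found for all 10 genes and were searched on both strands. Gene positions given below come from another annotation, GENCODE M21, whose starts differ for some genes. The ER stress element, ERSE, was searched as CCAAT and CCACG with 9 free bases between them, ERSE-II as ATTGG and CCACG with 1 free base between them, the unfolded protein response element, UPRE, as TGACGTGG, and the C/EBP-ATF response element bound by ATF4, CARE, as TGATGNAA. ERSE and ERSE-II share their CCACG letters, but no matches overlapped in these windows. The upstream 250 bases follow 5′ to 3′ on the strand of each gene, with every match in capitals; they cover chr2:34771840-34772089 (plus strand) for Hspa5, chr10:86705445-86705694 (minus strand) for Hsp90b1, chr8:84846932-84847181 (minus strand) for Calr and chr8:94386179-94386428 (plus strand) for Herpud1.
Hspa5: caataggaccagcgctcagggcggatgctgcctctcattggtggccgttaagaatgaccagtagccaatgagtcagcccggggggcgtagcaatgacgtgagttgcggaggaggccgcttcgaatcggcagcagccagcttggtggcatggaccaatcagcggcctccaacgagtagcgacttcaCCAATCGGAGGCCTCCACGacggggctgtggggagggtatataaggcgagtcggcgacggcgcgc
Hsp90b1: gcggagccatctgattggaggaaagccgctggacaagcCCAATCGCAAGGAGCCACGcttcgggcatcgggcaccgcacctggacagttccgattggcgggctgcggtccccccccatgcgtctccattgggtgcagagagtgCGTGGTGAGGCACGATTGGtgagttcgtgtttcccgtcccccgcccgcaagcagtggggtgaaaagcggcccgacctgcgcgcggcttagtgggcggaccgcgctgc
Calr: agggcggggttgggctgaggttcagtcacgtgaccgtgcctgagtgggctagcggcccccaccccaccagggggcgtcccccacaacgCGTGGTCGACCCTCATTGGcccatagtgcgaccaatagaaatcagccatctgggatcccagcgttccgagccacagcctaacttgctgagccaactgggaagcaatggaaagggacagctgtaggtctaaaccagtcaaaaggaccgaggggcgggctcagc
Herpud1: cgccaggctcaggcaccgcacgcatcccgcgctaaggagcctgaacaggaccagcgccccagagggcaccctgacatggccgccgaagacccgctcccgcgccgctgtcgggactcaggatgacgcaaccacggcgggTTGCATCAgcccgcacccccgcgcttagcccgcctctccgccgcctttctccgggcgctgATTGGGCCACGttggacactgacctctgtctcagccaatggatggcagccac
ERSE was present in 3 of the 10 windows, those of Hspa5, Hsp90b1 and Calr, against 39 of 32851 windows of the same length (0.119%). Hspa5 held it between positions -65 and -47 from the start, Calr between -162 and -144 on the opposite strand, and Hsp90b1 at both -212 to -194 and, on the opposite strand, -107 to -89. ERSE-II was present in 12 windows of all (0.0365%), among them that of Herpud1 between -52 and -42. CARE was present in 1304 windows (3.97%), among them those of Herpud1, between -112 and -105, and Trib3, between 15 and 22 after the start, both on the opposite strand. UPRE was present in 222 windows (0.676%) and in 0 of the 10. All positions of matches count from the RefSeq start. By the GENCODE gene positions, the Hspa5 ERSE lies inside the gene and the Trib3 CARE lies before its start. Part of the bases shown for Hspa5, Hsp90b1 and Calr likewise lies inside those genes. A match describes the letters of the window, and binding was not measured.

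Total counts ranged from 6805106 to 8370820 per library. EGF replicate 5 stood apart from the rest: 12731 genes had a count in it, against 18734 to 20046 in the other 9 libraries, and it was the highest or the lowest of the 10 libraries in 81.3% of tested genes, against 8.55% to 17.8% for the others. Results of the 10 genes are therefore given with and without it. Mitochondrial genes took 7.72% to 10.04% of counts in EGF libraries and 5.89% to 7.43% in Saline libraries, so the groups did not overlap in this measure, and Malat1, a nuclear RNA, took 0.387% to 1.62% in EGF libraries (highest in replicate 5) and 0.336% to 0.444% in Saline libraries. The part of these measures in the results was not tested. The labelled cell type was checked on 12 HSPC markers, of which 11 averaged above 10 CPM (counts scaled to a common library size by TMM, the unit of all levels below). Kit, the stem cell factor receptor, had 447 to 505 CPM in EGF libraries and 380 to 448 CPM in Saline libraries. Procr, a stem cell surface marker, was listed at 0 in EGF replicate 5. It is not stated whether each library is a separate mouse, and the p-values then reflect spread among libraries that may be technical.

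No gene of the 10 passed the threshold, an adjusted p of 0.05 over all genes in edgeR's quasi-likelihood test. Herpud1, a factor of ER-associated degradation, was the gene whose EGF values all lay below its Saline values, and it passed by a second tool, DESeq2, once EGF replicate 5 was set aside. Sdf2l1, a cofactor of BiP, was lower in 4 of 5 EGF libraries than in any Saline library. The abundant chaperones Hspa5, Hsp90b1, Calr and Pdia4 and the regulator Atf4 overlapped between the groups. Ddit3, which encodes the stress factor CHOP, averaged higher in EGF libraries, and most of that difference came from EGF replicate 5.

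**Figure D1:**
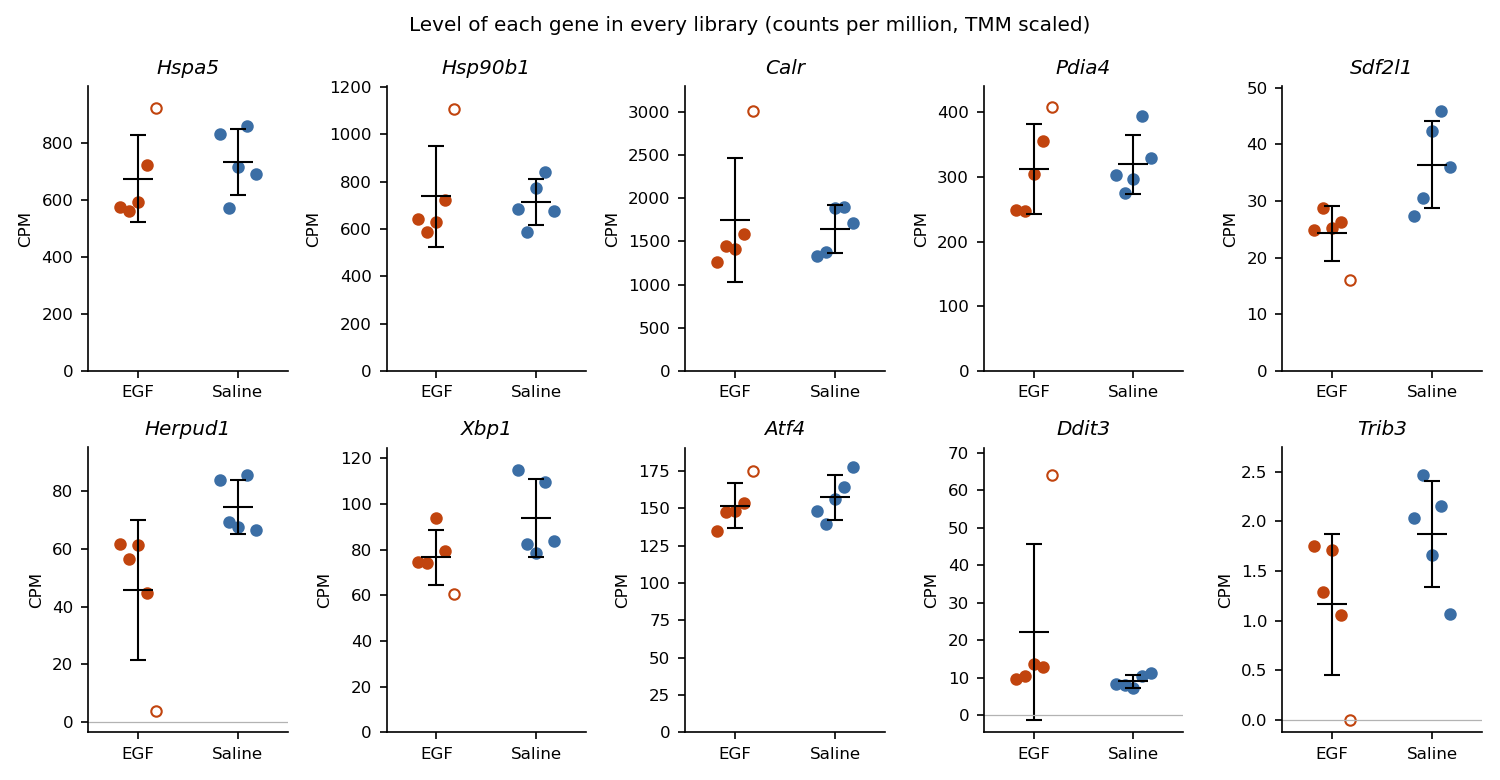
Level of each of the 10 genes in every library, in CPM scaled by TMM, EGF in orange and Saline in blue; horizontal and vertical bars are the mean and SD of 5 libraries and the open symbol is EGF replicate 5. Herpud1 values do not overlap between the groups, and EGF replicate 5 is the highest EGF library for Hspa5, Hsp90b1, Calr, Pdia4, Atf4 and Ddit3 and the lowest for Sdf2l1, Herpud1, Xbp1 and Trib3.

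Among the chaperones, Hspa5 (chr2:34771970-34777547, GRCm38, plus strand) encodes BiP, the main Hsp70 of the ER. Its levels were 575, 562, 591, 721 and 923 CPM in EGF replicates 1 to 5, against 833, 570, 714, 859 and 692 CPM in Saline replicates 1 to 5. EGF replicate 5 held the highest value of all and EGF replicate 2 the lowest, and the groups overlapped. The means were 675 ± 153 CPM in EGF and 734 ± 116 CPM in Saline (SD, n = 5 each), a log2 fold change of -0.12 ± 0.16 (SE; edgeR, adjusted p = 0.797). With EGF replicate 5 left out, the EGF mean was 613 ± 73.3 CPM (n = 4) and the log2 fold change -0.26 ± 0.11 (edgeR, unadjusted p = 0.0408, adjusted p = 0.294). In RNA from bulk cells, fewer cells of a type and less RNA per cell cannot be told apart, here and in every comparison below.

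Hsp90b1 (chr10:86690209-86705509, minus strand) encodes GRP94, the Hsp90 of the ER, which folds integrins and Toll-like receptors. Its levels were 642, 587, 628, 724 and 1107 CPM in EGF libraries, against 685, 587, 775, 839 and 676 CPM in Saline libraries. All EGF libraries except replicate 5 lay inside the Saline range. The log2 fold change was 0.05 ± 0.17 with all libraries (edgeR, adjusted p = 0.920) and -0.14 ± 0.10 without EGF replicate 5 (adjusted p = 0.491), so its sign turned on that library, and without Saline replicate 2 it was -0.01. Some 10.3% of its exonic bases overlap genes of the other strand, chiefly 1810014B01Rik. That gene had 26.8 CPM in EGF replicate 5, 9.53 to 11.5 CPM in the other EGF libraries and 6.48 to 10.03 CPM in Saline libraries. Whether the counting used strand is not stated in the sources used here.

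Calr (chr8:84841850-84846934, minus strand) encodes calreticulin, a calcium-binding lectin that folds glycoproteins. It had 1260, 1449, 1409, 1587 and 3013 CPM in EGF libraries, against 1328, 1380, 1885, 1903 and 1714 CPM in Saline libraries. EGF replicate 5 stood 2.11-fold above the median of the other EGF libraries, while EGF replicates 1 to 4 lay below 3 of the 5 Saline libraries. The log2 fold change was 0.09 ± 0.23 with all libraries (edgeR, adjusted p = 0.895) and -0.20 ± 0.12 without EGF replicate 5 (adjusted p = 0.400), again of opposite sign. A pseudogene copy, Calr-ps, had at most 7 counts in any library.

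Pdia4 (chr6:47796141-47813430, minus strand) encodes a disulfide isomerase of the ER. Its levels were 248, 248, 304, 355 and 407 CPM in EGF libraries, against 303, 275, 297, 393 and 329 CPM in Saline libraries. EGF replicates 1 and 2 were lowest of all and EGF replicate 5 highest, so the EGF values spanned the Saline ones. Its log2 fold change was -0.03 ± 0.15 (edgeR, adjusted p = 0.940) and -0.15 ± 0.12 without EGF replicate 5 (adjusted p = 0.571); it was 0.04 without EGF replicate 1 or 2 and 0.05 without Saline replicate 4.

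Sdf2l1 (chr16:17130138-17132383, minus strand) encodes a small ER protein that works with BiP and its J-domain partners. It had 25.0, 28.7, 25.3, 26.3 and 16.1 CPM in EGF libraries, against 27.4, 30.6, 42.3, 46.0 and 35.9 CPM in Saline libraries. EGF replicates 1 and 3 to 5 lay below every Saline library, and EGF replicate 2 lay between Saline replicates 1 and 2. The means were 24.3 ± 4.80 CPM in EGF and 36.4 ± 7.76 CPM in Saline (SD, n = 5 each), a log2 fold change of -0.59 ± 0.19 (edgeR, unadjusted p = 0.0112, adjusted p = 0.552). In the 9 libraries without EGF replicate 5 the EGF mean was 26.3 ± 1.71 CPM (n = 4) and the log2 fold change -0.47 ± 0.14 (edgeR, adjusted p = 0.179; DESeq2, adjusted p = 0.0613). The difference therefore did not pass in either set of libraries, with or without the library that stood apart.

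Herpud1 (chr8:94386438-94395377, plus strand), whose promoter held ERSE-II, encodes a membrane scaffold of the ligase complex that passes misfolded proteins to the proteasome. It had 61.8, 56.4, 61.3, 44.8 and 3.92 CPM in EGF libraries, against 83.8, 69.1, 67.4, 85.6 and 66.5 CPM in Saline libraries. Every EGF library lay below every Saline library, with EGF replicate 5, at 28 counts, far below the other EGF libraries (380 to 493 counts). Among all tested genes 3.27% had groups that did not overlap, 1.65% with EGF lower; without EGF replicate 5 these shares were 5.01% and 2.36%. The means were 45.7 ± 24.3 CPM in EGF and 74.5 ± 9.39 CPM in Saline (SD, n = 5 each), a log2 fold change of -0.70 ± 0.49 (edgeR, adjusted p = 0.631). Leaving out EGF replicate 5, which was at 0.0666 times the median of the other EGF libraries, gave an EGF mean of 56.1 ± 7.90 CPM (n = 4). The difference was then -0.41 ± 0.11 by edgeR (log2 scale, unadjusted p = 0.00316, adjusted p = 0.168) and -0.41 ± 0.12 by DESeq2, where it passed (adjusted p = 0.0318). Leaving that library out reduced the spread of the EGF group and the size of the difference together.

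Of the transcription factors, Xbp1 (chr11:5520659-5525893, plus strand) encodes the factor made from mRNA spliced by IRE1. Its levels were 74.6, 74.3, 93.9, 79.4 and 60.8 CPM in EGF libraries, against 115, 82.6, 78.6, 110 and 84.0 CPM in Saline libraries. EGF replicates 1, 2 and 5 lay below all Saline libraries, and EGF replicate 3 lay above 3 of them. For Xbp1 the log2 fold change was -0.29 ± 0.14 (edgeR, unadjusted p = 0.0655, adjusted p = 0.552) and -0.22 ± 0.12 without EGF replicate 5 (adjusted p = 0.388).

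Atf4 (chr15:80255184-80257541, plus strand) encodes the central factor of the integrated stress response. It had 135, 148, 148, 153 and 175 CPM in EGF libraries, against 148, 139, 156, 165 and 178 CPM in Saline libraries. The groups covered nearly the same range, and the highest library was Saline replicate 5. The log2 fold change was -0.05 ± 0.09 (edgeR, adjusted p = 0.848) and -0.11 ± 0.07 without EGF replicate 5 (adjusted p = 0.488). Its standard error was the smallest among the 10 genes.

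Ddit3 (chr10:127290774-127296288, plus strand) encodes CHOP, a C/EBP family factor induced through ATF4 that can promote apoptosis. It had 9.53, 10.6, 13.7, 13.0 and 64.2 CPM in EGF libraries, against 8.25, 8.04, 7.25, 10.3 and 11.2 CPM in Saline libraries. EGF replicates 3, 4 and 5 lay above every Saline library, and replicate 5, with 458 counts against 76 to 110 in the other EGF libraries, was 5.45-fold above their median. The means were 22.2 ± 23.5 CPM in EGF and 9.02 ± 1.68 CPM in Saline (SD, n = 5 each), a log2 fold change of 1.30 ± 0.52 (edgeR, unadjusted p = 0.0304, adjusted p = 0.552). Without replicate 5 the EGF mean was 11.7 ± 1.97 CPM (n = 4) and the log2 fold change 0.37 ± 0.18 (edgeR, unadjusted p = 0.0563, adjusted p = 0.331). Of its exonic bases 4.73% overlap genes of the other strand, among them Mars, which had 44.7 to 70.2 CPM in EGF libraries, lowest in replicate 5, and 65.6 to 88.7 CPM in Saline libraries.

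Trib3 (chr2:152337422-152344032, minus strand) encodes a pseudokinase induced by ATF4 and CHOP that damps their activity. It was barely detected, with 14, 10, 12, 9 and 0 counts in EGF libraries, against 16, 19, 14, 16 and 8 counts in Saline libraries. The groups overlapped, and the 0 in EGF replicate 5 allows a level of up to 0.386 CPM (3 counts). For Trib3 the log2 fold change was -0.68 ± 0.65 (edgeR, adjusted p = 0.718) and -0.37 ± 0.35 without EGF replicate 5 (adjusted p = 0.633). Counting error alone gave a coefficient of variation of 26.2% at its Saline level, against 28.5% observed between Saline libraries, so differences in Trib3 were not resolved at this depth. For Calr the counting error was 0.884% against 16.7% observed, and for Ddit3 12.0% against 18.6%.

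By edgeR 0 of the 10 genes passed, beside 1 of 12874 genes tested (0.00777%). Before adjustment, 2 of the 10 were under a p of 0.05, Sdf2l1 lower and Ddit3 higher, beside 8.87% of all genes (6.14% higher and 2.73% lower). In the 9 other libraries edgeR again passed 0 of the 10, beside 8 of 13104 genes (0.0611%), and 3 were under an unadjusted p of 0.05, Hspa5, Sdf2l1 and Herpud1, all lower, beside 15.8% of all genes (7.39% lower). DESeq2 passed 0 of the 8 genes to which it gave an adjusted p with all libraries, beside 0.672% of all genes, and gave none to Ddit3 and Trib3. With EGF replicate 5 left out it passed 1 of 10, Herpud1, lower, beside 2.49% of all genes (1.03% lower). By limma-voom with sample quality weights 0 passed, beside 0.0932% of all genes. Log2 fold changes lay below 0 for 7 of the 10 genes with all libraries (51.5% of all genes) and for 9 of the 10 without EGF replicate 5 (50% of all genes). Their median was -0.09 with all libraries and -0.21 without EGF replicate 5, beside a median of -0.01 for all genes with all libraries.

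**Figure D2:**
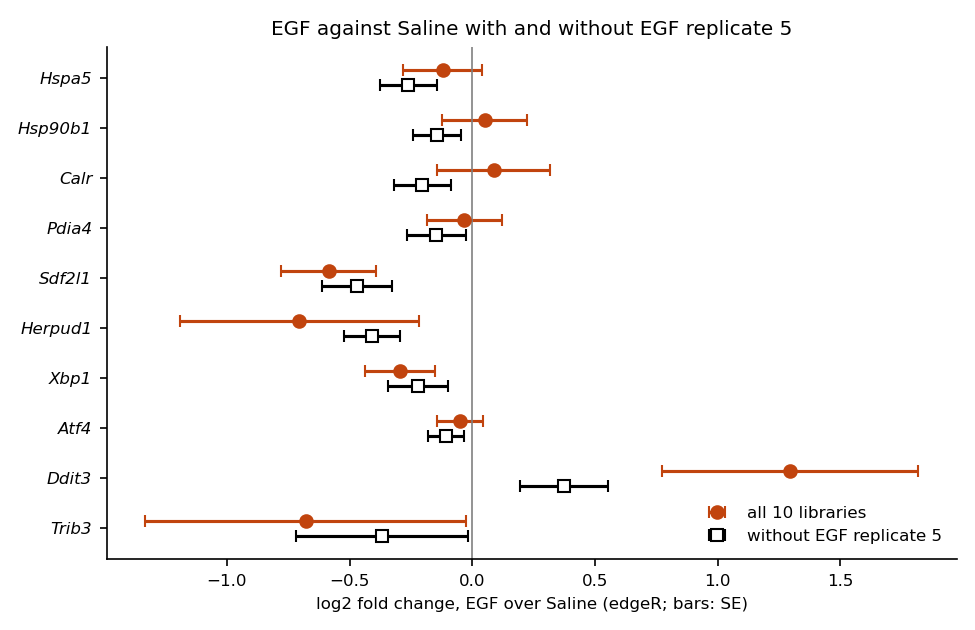
Log2 fold change of EGF over Saline for each gene with its standard error (edgeR), with all 10 libraries (filled circles) and without EGF replicate 5 (open squares). Leaving out that library moves Hsp90b1 from 0.05 to -0.14 and Calr from 0.09 to -0.20, and Ddit3 from 1.30 to 0.37, the only one of the 10 above 0 in both.

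Levels differed widely between the genes. Per kilobase of exon in Saline libraries, Calr was highest at 570 ± 95.0 CPM per kb, followed by Hsp90b1 at 177 ± 24.1, Hspa5 at 174 ± 27.5 and Pdia4 at 133 ± 19.0 CPM per kb (SD, n = 5). Atf4 stood at 66.7 ± 6.27, then Sdf2l1 at 32.9 ± 7.005, Herpud1 at 31.9 ± 4.03 and Xbp1 at 28.9 ± 5.22 CPM per kb. Ddit3 stood at 5.27 ± 0.980 and Trib3 at 0.883 ± 0.251 CPM per kb. Across Saline libraries the neighbours in this order that overlapped were Hsp90b1 and Hspa5, Hspa5 and Pdia4, Sdf2l1 and Herpud1, and Herpud1 and Xbp1. The 4 large chaperones thus lay above the transcription factor genes Xbp1, Atf4 and Ddit3, and Ddit3 and Trib3 were the scarcest of the 10. Atf6 was not part of this comparison.

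Among the genes, the large chaperones varied together from library to library. The 9 other genes were each compared with Hspa5 over the 10 libraries on log2 CPM, with permutation tests adjusted over the 9 relations. Hsp90b1 followed Hspa5 most closely (Pearson r = 0.860, permutation p = 0.00027, adjusted p = 0.00243; Spearman rho = 0.927, permutation p = 0.00031, adjusted p = 0.00279). Pdia4 followed it as well (r = 0.849, permutation p = 0.00272, adjusted p = 0.0122; rho = 0.855, permutation p = 0.00266, adjusted p = 0.0120), and so did Calr by Pearson's r but not by rank (r = 0.709, permutation p = 0.0123, adjusted p = 0.0368; rho = 0.600, permutation p = 0.0737, adjusted p = 0.166). With EGF replicate 5 left out Hsp90b1 still passed (r = 0.846, permutation p = 0.00426, adjusted p = 0.0383), while Pdia4 (r = 0.785, adjusted permutation p = 0.0561) and Calr (r = 0.550, adjusted permutation p = 0.211) did not. Without EGF replicates 2 and 5, farthest from the median of Hspa5, r was 0.813 for Hsp90b1 (adjusted permutation p = 0.134), 0.736 for Pdia4 and 0.546 for Calr, so none of the 3 passed in those 8 libraries. Within groups, on deviations from the group means, r was 0.903 for Hsp90b1, 0.856 for Pdia4 and 0.746 for Calr with all libraries, and 0.817, 0.756 and 0.395 in that order without EGF replicate 5. Atf4 did not pass (r = 0.688, adjusted permutation p = 0.0691), nor did Xbp1 (r = 0.162, adjusted permutation p = 0.729). Without EGF replicate 5, r rose to 0.725 for Xbp1 (adjusted permutation p = 0.0856), above that of Calr, and was 0.573 for Atf4 (adjusted permutation p = 0.2105). Neither passed there. Herpud1 stood at r = -0.45 with all libraries and 0.5005 without EGF replicate 5, and Ddit3 at 0.480 and -0.13.

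**Figure D3:**
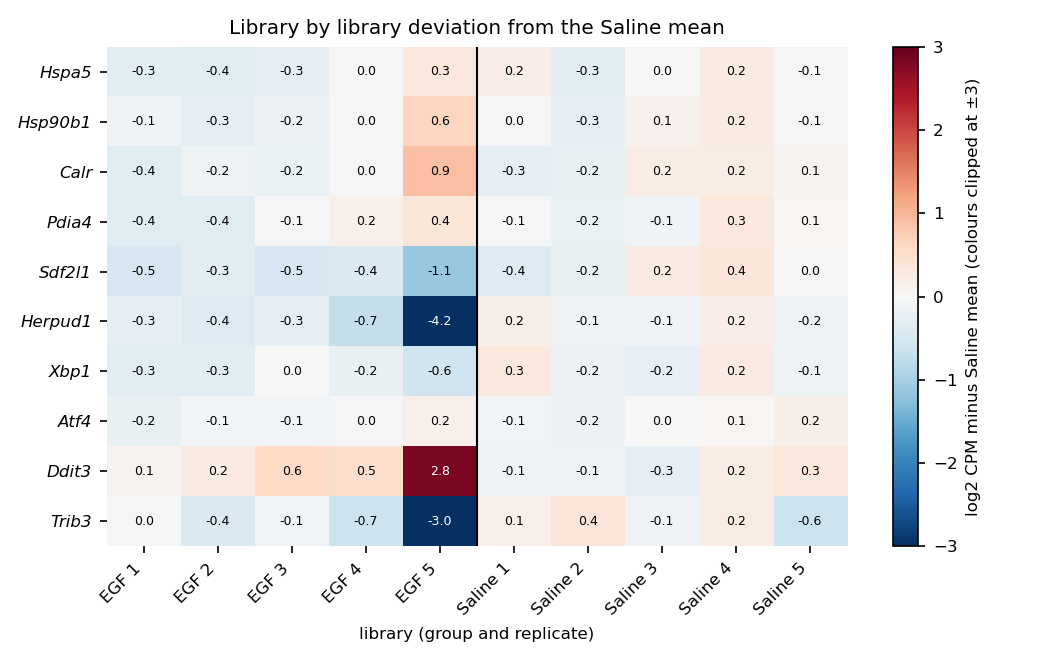
Difference of log2 CPM from the Saline mean for each gene (rows) in each library (columns, EGF left and Saline right); colours are clipped at 3 in each direction and the printed numbers are not. In EGF replicate 5 Herpud1, Trib3, Sdf2l1 and Xbp1 lie below the Saline mean and Ddit3, Calr, Hsp90b1, Pdia4, Hspa5 and Atf4 above it.

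Markers of other cell types moved with some of the genes. The summed level of 12 plasma cell markers was 4033, 2239, 4719, 2221 and 961 CPM in EGF libraries, against 7351, 4880, 3622, 5938 and 3480 CPM in Saline libraries (log2 difference -0.98, exact permutation p = 0.0635, adjusted p = 0.254 over 8 marker lists), and without EGF replicate 5 the log2 difference was -0.64 (exact permutation p = 0.127, adjusted p = 0.254). Igkc, an antibody light chain gene, took the largest share. Tnfrsf17 was at 0 in EGF replicate 5, and Ighg2c was at 0 there, in EGF replicate 3 and in Saline replicate 1. Mzb1 (5.74 CPM) and Tnfrsf13b (51.55 CPM) were instead highest of all 10 libraries in EGF replicate 5. EGF replicates 1 and 3 lay inside the Saline range of this sum and EGF replicates 2, 4 and 5 below it. Of 10 relations with this sum over the 10 libraries, Herpud1 (r = 0.865, permutation p = 0.00011, adjusted p = 0.0011; rho = 0.879, permutation p = 0.00158, adjusted p = 0.0079) and Xbp1 (r = 0.876, permutation p = 0.00076, adjusted p = 0.00253; rho = 0.794, permutation p = 0.00859, adjusted p = 0.0286) varied with it in the same direction. Trib3 did too (r = 0.899, permutation p = 0.00064, adjusted p = 0.00253; rho = 0.927, permutation p = 0.00033, adjusted p = 0.0033), and Ddit3 ran against it by Pearson's r (r = -0.80, permutation p = 0.0162, adjusted p = 0.0404) but not by rank (rho = -0.58, permutation p = 0.0879, adjusted p = 0.220). Without EGF replicate 5, Herpud1 (r = 0.880, adjusted permutation p = 0.0244; rho = 0.833, adjusted permutation p = 0.0441) and Trib3 (r = 0.803, adjusted permutation p = 0.0357; rho = 0.900, adjusted permutation p = 0.0207) passed by both measures. Xbp1 then passed by Pearson's r (0.810, adjusted permutation p = 0.0357) but not by rank (rho = 0.717, adjusted permutation p = 0.125), and Ddit3 by neither (r = -0.38, adjusted permutation p = 0.625; rho = -0.42, adjusted permutation p = 0.676). Without EGF replicate 5 and Saline replicate 1, farthest from the median of the sum, Trib3 passed by rank (rho = 0.929, adjusted permutation p = 0.0237) but not by r (0.817, adjusted permutation p = 0.0776). In those 8 libraries Herpud1 (r = 0.842, adjusted permutation p = 0.0547, and rho = 0.786, adjusted permutation p = 0.141) and Xbp1 (r = 0.705, adjusted permutation p = 0.159, and rho = 0.595, adjusted permutation p = 0.444) passed by neither. For Herpud1 r itself changed little, from 0.865 with all libraries and 0.880 without EGF replicate 5 to 0.842. For Xbp1 it fell from 0.876 and 0.810 to 0.705. Within groups, on deviations from the group means, r was 0.824 for Herpud1, 0.814 for Xbp1 and 0.880 for Trib3 with all libraries, and 0.834, 0.746 and 0.756 in that order without EGF replicate 5. Trib3 had only 0 to 19 counts per library, close to counting error, so its relation is less certain than its r and rho alone convey. The part of plasma cell RNA in the differences of Herpud1, Xbp1 and Trib3 was not tested.

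The summed level of 12 neutrophil granule markers was 1757, 2020, 2435, 2573 and 2860 CPM in EGF libraries, against 1658, 3015, 3724, 5788 and 4063 CPM in Saline libraries (log2 difference -0.56, exact permutation p = 0.135, adjusted p = 0.270), with a log2 difference of -0.64 without EGF replicate 5 (exact permutation p = 0.127, adjusted p = 0.254). Mpo, the granule enzyme that progenitors also express, made up most of it, at 1429 to 2144 CPM in EGF libraries and 1307 to 4372 CPM in Saline libraries. Of the markers of late granules, Ltf (129 CPM), Ngp (130.1 CPM), S100a9 (176 CPM), Camp (25.5 CPM) and Lcn2 (41.3 CPM) were highest of all 10 libraries in EGF replicate 5. S100a8 (13.9 CPM there) and Mmp8 (0.280 CPM there) were not, with 61.4 CPM of S100a8 in Saline replicate 4 and 2.67 CPM of Mmp8 in Saline replicate 5. Retnlg was at 0 in 4 EGF libraries, replicates 1, 3, 4 and 5, and in Saline replicate 1. Relations with this sum were added after the values were seen: over all 10 libraries 0 of 10 passed, with r = 0.613 for Sdf2l1 (permutation p = 0.0584, adjusted p = 0.240; rho = 0.673, permutation p = 0.0384, adjusted p = 0.162) and r = 0.510 for Calr (permutation p = 0.132, adjusted p = 0.330; rho = 0.733, permutation p = 0.0199, adjusted p = 0.162). For Atf4 r was 0.631 over all 10 libraries (adjusted permutation p = 0.240). Without EGF replicate 5 r was 0.881 for Sdf2l1 and 0.882 for Calr (adjusted permutation p = 0.00855 each). By rank neither passed there (Sdf2l1, rho = 0.8, adjusted permutation p = 0.0697; Calr, rho = 0.85, adjusted permutation p = 0.0584). Atf4 had r = 0.715 there and passed by neither measure. Without Saline replicates 1 and 4, farthest from the median, r was 0.472 for Sdf2l1, 0.447 for Calr and 0.678 for Atf4, and none passed. Since progenitors also express Mpo, this sum does not mark neutrophils alone. The part of the cells that express these markers in the lower Sdf2l1 level was not tested. Sums of the other lists stayed at or under 275 CPM in EGF libraries and 272 CPM in Saline libraries, except HSPC markers, at 1956 to 2174 CPM in EGF libraries and 1706 to 1989 CPM in Saline libraries (exact permutation p = 0.0159, adjusted p = 0.127; without EGF replicate 5, exact permutation p = 0.0317, adjusted p = 0.254).

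**Figure D4:**
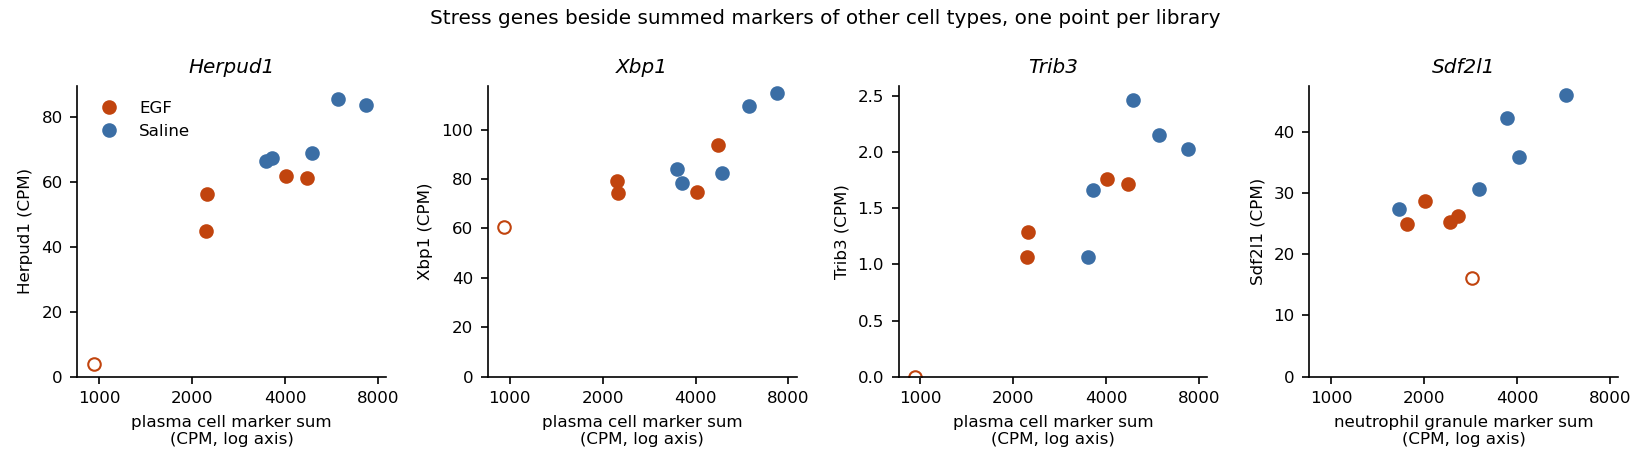
Herpud1, Xbp1 and Trib3 against the summed plasma cell markers and Sdf2l1 against the summed neutrophil granule markers (CPM, log horizontal axis), 1 point per library, EGF orange, Saline blue, open symbol EGF replicate 5. Libraries with more plasma cell marker RNA tend to have more Herpud1, Xbp1 and Trib3, with r over all 10 libraries of 0.865, 0.876 and 0.899 in that order. Trib3 had only 0 to 19 counts per library, close to counting error.

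The rest of the pathway was read from 3 lists. Of 30 genes of ER folding and degradation, all tested, 0 passed in either direction by edgeR. Of these 7 lay above 0 and 23 below, beside 51.5% of all genes below, and the median log2 fold change was -0.12, beside -0.01 for all genes. Before adjustment, 0 were higher and 3 lower at a p under 0.05 by edgeR, beside 6.14% of all genes higher and 2.73% lower. DESeq2 and limma-voom passed 0 as well. Edem2, a mannosidase-like factor that hands glycoproteins to degradation, averaged 39.6 ± 4.32 CPM in EGF and 52.8 ± 5.001 CPM in Saline (SD, n = 5 each; log2 fold change -0.42 ± 0.11, edgeR adjusted p = 0.552). Sec61b, a subunit of the translocation channel, averaged 34.6 ± 7.03 CPM in EGF and 51.1 ± 9.32 CPM in Saline (-0.56 ± 0.18). Pdia6, a disulfide isomerase, averaged 149 ± 47.1 CPM in EGF and 215 ± 28.2 CPM in Saline (-0.53 ± 0.23), and Ssr1, of the translocon-associated complex, 321 ± 35.5 CPM in EGF and 375 ± 39.2 CPM in Saline (-0.22 ± 0.10). These 3 had the same adjusted p as Edem2. With EGF replicate 5 left out, the log2 fold changes were -0.38 for Edem2, -0.45 for Sec61b, -0.35 for Pdia6 and -0.16 for Ssr1 (edgeR); Pdia6 was at 65.4 CPM in that library, against 158 to 176 CPM in the other EGF libraries. When EGF replicate 5 was left out, 2 of the 30 lay above 0 and 28 below (median -0.16), beside 50% of all genes below, with 0 passing by edgeR. DESeq2 then passed 3 as lower, Edem2, Sec61b and Pdia6, beside 1.03% of all genes lower.

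Of 30 targets of ATF4 and the integrated stress response, 26 had counts high enough to test, and 0 passed by edgeR. Of these 7 lay above 0 and 19 below (median -0.25), beside 51.5% of all genes below. Before adjustment, 1 was higher and 6 were lower at a p under 0.05 by edgeR, beside 6.14% of all genes higher and 2.73% lower. DESeq2 and limma-voom also passed 0. Vldlr, a lipoprotein receptor, averaged 52.5 ± 12.5 CPM in EGF and 86.4 ± 15.4 CPM in Saline (log2 fold change -0.72 ± 0.18, edgeR adjusted p = 0.552). Phgdh, the first enzyme of serine synthesis, averaged 79.6 ± 25.2 CPM in EGF and 120 ± 15.3 CPM in Saline (-0.59 ± 0.22), and Gars, the glycyl-tRNA synthetase, 124 ± 11.5 CPM in EGF and 145 ± 10.9 CPM in Saline (-0.23 ± 0.09). Atf3, an early stress factor, lay on the other side of 0, with 17.8 ± 7.42 CPM in EGF and 10.4 ± 2.08 CPM in Saline (0.78 ± 0.29), its highest value again in EGF replicate 5. All 4 had an adjusted p of 0.552 by edgeR. In the 9 other libraries their log2 fold changes were -0.79 for Vldlr, -0.41 for Phgdh, -0.25 for Gars and 0.52 for Atf3. Without EGF replicate 5, 5 lay above 0 and 21 below (median -0.19), beside 50% of all genes below. DESeq2 then passed 3 as lower, beside 1.03% of all genes lower: Vldlr, Phgdh and Shmt2, the mitochondrial serine hydroxymethyltransferase. Shmt2 was named after its values were seen; its log2 fold change without that library was -0.31 ± 0.06 (edgeR, adjusted p = 0.0813), and with it -0.09 ± 0.17.

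Of 16 sensors and eIF2 regulators, all tested, 0 passed by edgeR, 8 lay above 0 and 8 below, and the median was -0.01, the same as for all genes. Without EGF replicate 5 there were 6 above and 10 below (median -0.06). Of all genes, 51.5% lay below 0 with all libraries and 50% without EGF replicate 5. Before adjustment, 2 were higher and 1 lower at a p under 0.05 by edgeR with all libraries, beside 6.14% of all genes higher and 2.73% lower. DESeq2 passed 0 with or without EGF replicate 5. Ern1, which encodes IRE1, averaged 173 ± 37.5 CPM in EGF and 125 ± 13.7 CPM in Saline (log2 fold change 0.47 ± 0.15, edgeR adjusted p = 0.552). Eif2ak2, the double-stranded RNA sensing eIF2 kinase PKR, averaged 105 ± 30.4 CPM in EGF and 77.4 ± 5.59 CPM in Saline (0.44 ± 0.16, edgeR adjusted p = 0.552). Eif2b5, a subunit of the eIF2 exchange factor, averaged 67.2 ± 5.16 CPM in EGF and 80.1 ± 8.79 CPM in Saline (-0.25 ± 0.10, edgeR adjusted p = 0.552), and Eif2s1, which encodes eIF2 alpha, 129 ± 9.74 CPM in EGF and 143 ± 11.1 CPM in Saline (-0.15 ± 0.08, edgeR adjusted p = 0.579). With EGF replicate 5 left out, the log2 fold changes were 0.42 for Ern1, 0.24 for Eif2ak2, -0.24 for Eif2b5 and -0.19 for Eif2s1 (edgeR); Eif2ak2 was at 159 CPM in that library, against 86.2 to 98.8 CPM in the other EGF libraries. Thus the sensor transcripts lay on both sides of 0, with 0 past the threshold.

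**Figure D5:**
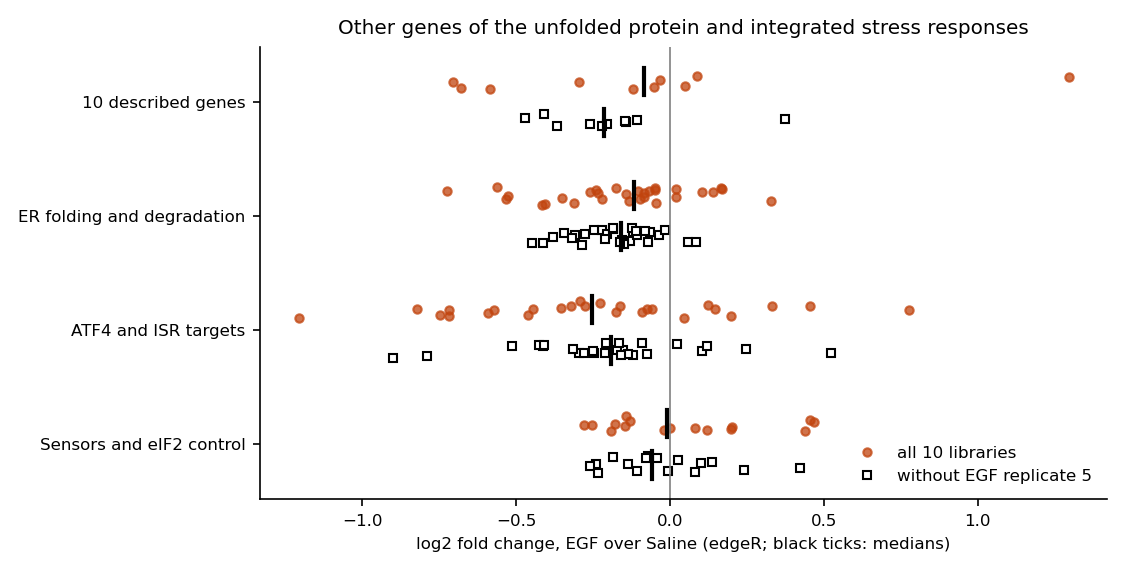
Log2 fold change of EGF over Saline (edgeR) for the 10 described genes and for the tested genes of each pathway list, with all 10 libraries (circles) and without EGF replicate 5 (squares); black ticks mark medians. Medians of the ER folding list are -0.12 and -0.16, of the ATF4 list -0.25 and -0.19 and of the sensors -0.01 and -0.06.

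The transcripts whose levels were most like those of Hspa5 over the 10 libraries, among 8894 genes averaging at least 10 CPM, were Mcfd2 (Pearson r = 0.922), Manf (0.909), Creld2 (0.907), Anapc16 (0.892) and Rfxap (0.879). Manf encodes a growth factor-like protein of the ER and Creld2 an ER-resident isomerase-like protein. Without EGF replicate 5, r was 0.905 for Mcfd2 (rank 2), 0.926 for Manf (rank 1) and 0.869 for Creld2 (rank 8). It was 0.843 for Anapc16 (rank 17) and 0.84 for Rfxap (rank 19). For Atf4 the most alike were Fndc3b (0.900), Exosc3 (0.895), Lgals1 (0.883), Hacd3 (0.878) and Dnajc10 (0.875), an ER disulfide reductase. Their r without EGF replicate 5 was 0.867, 0.87, 0.852, 0.837 and 0.832 in that order. Their ranks were then 11, 9, 19, 32 and 37, so other genes were more like Atf4 in those libraries. These values describe likeness over libraries that share their preparation and depth and carry no test.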

How the data were processed

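RNA of HSPCs was sequenced in 10 libraries. Extraction used the Qiagen RNeasy Micro kit, and a Clontech kit with rRNA depletion gave the libraries, per the labels' protocols. The tools bcl2fastq 2.17 and STAR and the builds GRCm38 and mm10 are named per the submitters' processing notes; not given in the sources used here are the counting tool, its use of strand and the annotation release. The deposited values are raw counts of reads per gene, not normalized by the authors, with 1 table per library. Intervals of depth cover counting error only, since PCR copies cannot be told apart.

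Counts were scaled by TMM (factors 0.921 to 1.05), filtered with filterByExpr (minimum count 10) and tested with edgeR 4.0.16 (R 4.3.3) by the quasi-likelihood F test over all 10 libraries, with Benjamini-Hochberg adjustment over 12874 genes. Standard errors came from the F statistic. Marker sums were compared by exact two-sided permutation over 252 arrangements, whose smallest p is 0.00794, and correlations (prior count 2) by 100000 two-sided permutations (scipy 1.17.1). Positions and exon lengths came from GENCODE M21 (GRCm38), promoters from RefSeq. Alternatives were RLE and library size scaling, DESeq2 1.42.0, limma-voom with quality weights (limma 3.58.1), other filters, the replicate block and each library left out; fits combining these with the loss of EGF replicate 5, and the neutrophil relations, were added after the data were seen.

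The 10 genes and all lists were chosen with earlier results of these data known. The text names all 10, the 4 genes of each list with the smallest p, and the 5 genes most like Hspa5 and Atf4; any other gene was named with its values in view. The test was checked on simulated counts with 50 changed genes of each size. With all 10 libraries it recovered 20% of 1.5-fold, 42% of 2-fold and 84% of 4-fold changes. Without EGF replicate 5 it recovered 44%, 72% and 96% in that order. The simulated counts took the mean of each gene and a spread set by its level. No simulated library therefore stood apart as EGF replicate 5 did, and recovery in the real libraries may differ. A gene that did not pass may therefore still differ between the groups.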

Additional observations from a re-analysis of the deposited data

Results flagged for a closer look

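In 20 groups of 5 libraries, 1 for each gene and treatment, a value was singled out where its gap to the nearest library exceeded 0.71 of the range of its group (Dixon's test), which chance gives in about 1 in 20 groups. There were 3 such values, all in EGF replicate 5. Over all 12874 tested genes EGF replicate 5 met the same limit in 28.3%, and the other EGF libraries in 0.163% to 0.443%, so 3 of 10 is near the share for that library. Hsp90b1 was at 1107 CPM there, against 587 to 724 CPM in the other EGF libraries (gap 0.737 of the range). Calr was at 3013 CPM, against 1260 to 1587 CPM (0.814). Ddit3 was at 64.2 CPM, against 9.53 to 13.7 CPM (0.924). The source of these values was not tested.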

How the results depend on the processing

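No gene of the 10 passed under RLE scaling, library size scaling, DESeq2, limma-voom, the other filters, the replicate block or any library left out (0 each), and the count became 1 (Herpud1, log2 fold change -0.41) by DESeq2 without EGF replicate 5. Genes passing among all tested were 1 by edgeR, 0 by library size scaling, 56 by DESeq2, 12 by limma-voom with quality weights, and 0 to 8 with a library left out (2 without EGF replicate 1, 8 without EGF replicate 5, 1 without Saline replicate 2, 0 without any other); without EGF replicate 5 they were 313 by DESeq2, 6 by limma-voom, 0 with the replicate block and 8 by RLE or library size scaling. The lists of ER folding and of ATF4 targets each had 3 passing by DESeq2 without EGF replicate 5, all lower, beside 1.03% of all genes lower. Whether replicate numbers pair the libraries is not stated. Same-numbered libraries had correlations of deviations of -0.08 to 0.02, no EGF library matched its own number best, and the replicate block left 0 genes passing. The deviations were taken from group means that include EGF replicate 5, so these values cannot decide whether the libraries were paired.

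The sign of Hsp90b1 changed by limma-voom (-0.15) and with a library left out (-0.14 to 0.12); without EGF replicate 5 it was -0.14 by DESeq2 or RLE, -0.16 by limma-voom, -0.15 with the replicate block and -0.11 by library size. Calr changed by limma-voom (-0.26) and with a library left out (-0.20 to 0.18), and without EGF replicate 5 was -0.20 by DESeq2 or RLE, -0.27 by limma-voom and -0.17 with the replicate block or library size. Pdia4 ran from -0.15 to 0.050 with a library left out, and the megakaryocyte marker difference from -0.055 to 0.22. The other 7 genes kept their sign under every alternative run, Ddit3 between 0.37 and 1.49 and Herpud1 between -0.84 and -0.41 with a library left out.

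Against Hspa5, r without EGF replicate 5 was 0.550 (Calr), 0.785 (Pdia4), 0.531 (Sdf2l1), 0.5005 (Herpud1), 0.725 (Xbp1), -0.13 (Ddit3) and 0.0786 (Trib3), and without the 2 farthest libraries 0.813 (Hsp90b1), 0.546 (Calr), 0.736 (Pdia4), 0.526 (Sdf2l1), 0.442 (Herpud1), 0.678 (Xbp1) and -0.10 (Ddit3). Against the plasma cell sum, r without EGF replicate 5 was 0.423 (Hspa5), 0.206 (Hsp90b1), 0.194 (Pdia4) and -0.38 (Ddit3), and without the 2 farthest 0.200 (Hspa5), 0.228 (Hsp90b1), 0.0939 (Calr), 0.233 (Pdia4), 0.842 (Herpud1), 0.705 (Xbp1), -0.24 (Ddit3) and 0.817 (Trib3). Against the neutrophil sum, signs changed to -0.00095 (Ddit3) and 0.0427 (Trib3) without EGF replicate 5, and to -0.0176 (Herpud1) and -0.0136 (Ddit3) without the 2 farthest. The causes were not tested. At its Saline level, counting error (26.2%) came close to the spread between Saline libraries (28.5%) for Trib3.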
